A study of Rattus norvegicus with 241 samples.

Results

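Interferon-stimulated genes were followed through the rat mammary gland, in sorted cells and in single cells, after short treatment with an inhibitor of the TGFβ type I receptor. The set was a fixed list of 43 genes matched by symbol, 24 of them antiviral effectors, 6 for signalling and transcription, 5 for antigen processing, 3 RNA sensors, 3 chemokines and 2 guanylate-binding proteins. Of the 43 genes, 42 were listed in the bulk tables of 16820 genes and 42 in the single-cell tables of 18566 genes. XAF1 was not among the bulk rows and OAS1B was not among the single-cell rows.

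The data were 202 bulk RNA-seq samples and 39 single-cell libraries, 241 samples in all, from female ACI and Sprague-Dawley (SD) rats. All rats received either vehicle or LY2157299, here called TGFBRi, by mouth at 75 mg/kg 2 times a day for 10 days, or for 21 days in the estradiol experiment. Young virgin rats were bought at 4 to 5 weeks. ACI rats were killed 0, 7 or 14 days after the last dose (3 rats per treatment and day, 54 samples), and SD rats on day 0 (4 rats per treatment, 24 samples). The labels call 2 of the 4 treated SD rats weak and 2 strong responders, and they were kept as 1 group. Adult ACI rats of 18 to 24 weeks were virgin or parous and were killed on day 0 (4 rats per group, 45 samples, with 3 CD45 samples for TGFBRi virgin and 2 for vehicle parous rats). In the tumor experiment with the carcinogen NMU (50 mg/kg), SD rats were dosed from 21 days of age, and glands came from 3 vehicle rats that bore tumors and from 6 TGFBRi rats, 3 of them tumor-free and 3 tumor-bearing (27 samples). NMU tumors came from 3 rats per treatment (12 samples), and gland and tumor samples were taken on day 87 after dosing. In the estradiol (E2) experiment, ACI rats were dosed from 38 days of age (40 samples). At 60 days they were given an implant with E2 or an empty one, and rats without E2 are those with the empty implant. Samples were taken at the end of the tumor experiment, long after the last dose. Vehicle rats with E2 were all tumor-bearing, as were the vehicle rats of the NMU gland samples, so treatment and tumor status cannot be told apart there against tumor-free TGFBRi rats. The 7 tumor-free TGFBRi samples with E2 came from 4 rats, since 4 were parts of 1 rat and were averaged, and only 2 TGFBRi rats with E2 bore tumors. Single cells came from young virgin rats on day 0, as sorted basal and luminal cells of 6 ACI rats (3 per treatment) and 9 SD rats (3 vehicle, 6 TGFBRi), and as whole glands of 9 SD rats (3 vehicle, 6 TGFBRi).

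Interferons bind receptors that act through JAK kinases and STAT proteins. Type I and type III interferons act through a complex with STAT2 and IRF9 that binds the interferon-stimulated response element (ISRE), while interferon gamma acts mainly through the gamma-activated site (GAS). Antiviral genes such as IFIT3, MX1, OAS1A and ISG15 are known mainly as type I targets, whereas CXCL9, IRF1, GBP2, TAP1 and the immunoproteasome gene PSMB8 respond strongly to interferon gamma. Many are also expressed at a basal level in tissue that is not infected, through IRF1, IRF7 or IRF8 among others. In the mammary gland the basal layer is myoepithelial, luminal cells line the ducts, and endothelium, mural cells, fibroblasts, macrophages and lymphocytes surround them.

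Promoter windows of RefSeq (build GRCr8, 250 bases before to 50 after the start) were matched for 34 of the 43 genes. Motifs were sought only in the 250 bases before the start, for the members and for all promoters. The ISRE core GAAANNGAA, read on both strands, was in 21 of these 34 windows (61.8%), against 8.12% of 33469 promoters. The GAS motif TTCNNNGAA was in 10 of 34 (29.4%), against 7.67%. The stretches shown are those of genes on which the results turn, with the motif letters in capitals. The capitals cover GAAANNGAA or its reverse complement, and each stretch lies within 250 bases before the start.
IFIT3, chr1:241527272-241527325 (+ strand): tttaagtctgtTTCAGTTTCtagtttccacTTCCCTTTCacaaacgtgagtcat
OAS1A, chr12:41330401-41330465 (+ strand): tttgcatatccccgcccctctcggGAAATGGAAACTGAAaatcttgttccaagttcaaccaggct
IRF7, chr1:205800053-205800121 (- strand): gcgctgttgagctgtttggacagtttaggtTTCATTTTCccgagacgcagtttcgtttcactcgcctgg
RSAD2, chr6:48788228-48788296 (- strand): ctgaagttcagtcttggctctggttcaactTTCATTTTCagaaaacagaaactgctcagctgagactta
PARP14, chr11:78408028-78408096 (+ strand): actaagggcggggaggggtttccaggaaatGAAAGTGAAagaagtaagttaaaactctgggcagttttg
CXCL10, chr14:15988816-15988861 (+ strand): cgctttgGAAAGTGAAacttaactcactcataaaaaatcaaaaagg
GBP2, chr2:234005667-234005726 (+ strand): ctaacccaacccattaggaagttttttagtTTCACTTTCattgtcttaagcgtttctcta
GBP5, chr2:233910914-233910982 (+ strand): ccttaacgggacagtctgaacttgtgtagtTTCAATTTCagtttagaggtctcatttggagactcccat
TAP1, chr20:4668625-4668693 (- strand): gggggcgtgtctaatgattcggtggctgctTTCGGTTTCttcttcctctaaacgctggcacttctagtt
BST2, chr16:18255054-18255122 (- strand): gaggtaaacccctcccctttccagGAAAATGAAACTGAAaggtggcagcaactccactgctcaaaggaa
The ISRE core of IFIT3 occurred 2 times, and both guanylate-binding protein genes, which are neighbours on chromosome 2, held it within 60 bases of the start. OAS1A, PARP14 and BST2 also held a GAS motif in the window. A match of letters is a description and no evidence of binding.

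Bulk samples held 4195000 to 52310000 reads, and the single-cell libraries held 160052 cells. Leukocyte markers (5 genes) summed, by experiment, to a median of 4.48 to 25.4 CPM (reads scaled to the same total in each sample) in the basal and luminal sorts and 3644 to 9427 in the CD45 sorts. The CD45 samples also held epithelial RNA, with epithelial markers at a median of 107.2 to 2091 CPM. In 1 NMU gland CD45 library the leukocyte markers reached only 796.4 CPM. Basal markers reached up to 18750 CPM in the NMU gland CD45 libraries (median 891.1), against 19880 to 35550 in the NMU gland basal libraries. Leukocyte markers reached up to 742.1 CPM in the NMU gland basal libraries (median 14.26). Bulk values are the authors' normalized counts, tested with limma on log2(normalized count + 1) across all genes at an adjusted p of 0.05. Single-cell values are CPM, UMI counts scaled to the same total in each rat and class, summed per rat and cell class and tested with edgeR at an adjusted p of 0.1. In a bulk sample, fewer cells of a type and less RNA per cell cannot be told apart.

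Some of these genes differed in level between sorted basal and luminal cells of vehicle rats on day 0, as did many of all genes. In both strains basal cells had more of the chemokine gene CXCL9 and of IFIT2 and IFIT3, which encode RNA-binding antiviral proteins, while luminal cells had more of OASL, OAS3, ISG20, ISG15 and the antigen-processing genes PSMB8, PSMB9 and TAPBP. In ACI rats 10 of 42 were higher in basal cells, against 23.4% of all genes, and 13 were lower, against 19.3%. In SD rats 6 of 40 were higher, against 29.6%, and 16 were lower, against 24.7%. The member counts therefore lay near or under the shares of all genes for the higher direction and above them for the lower direction. The median difference over the members was -0.04 in ACI and -0.29 in SD rats, and 0.16 and 0.16 over all genes.

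CXCL9, a T cell attractant, was at 520.3, 653 and 464 normalized counts in ACI basal and 47.8, 40.1 and 47.3 in ACI luminal cells (log2 difference 3.56 ± 0.28, adjusted p = 7.73e-07). In SD rats it was at 665, 1039, 785 and 984 in basal and 103.9, 12.501, 30.5 and 33.0001 in luminal cells (log2 difference 4.61 ± 0.52, adjusted p = 6.06e-05). The basal and luminal samples did not overlap in either strain. IFIT3 was at 261, 123 and 446 in ACI basal and 65.02, 18.95 and 45.6 in luminal cells (log2 difference 2.63 ± 0.54, adjusted p = 0.0018). IFIT2 differed by 2.90 ± 0.30 in ACI and 3.53 ± 0.34 in SD rats on the log2 scale. In the other direction, ISG15, a ubiquitin-like protein, was at 50.9, 77.5, 139 and 153 in SD basal and 1172, 729.8, 3286 and 2310 in SD luminal cells (log2 difference -4.04 ± 0.50, adjusted p = 0.000102). In ACI rats it was at 128, 134 and 117 and 316, 283 and 367 (log2 difference -1.34 ± 0.25, adjusted p = 0.000929). PSMB8 was at 305, 372 and 206 in ACI basal and 1021, 1187 and 1078 in luminal cells (log2 difference -1.93 ± 0.23, adjusted p = 2.49e-05), with all luminal above all basal samples. OASL, an RNA-sensing cofactor, had log2 differences of -3.52 ± 0.26 in ACI and -5.14 ± 0.53 in SD rats, the lowest of the tested members in both strains. TAP1, a peptide transporter subunit encoded near PSMB8, went the opposite way from PSMB8 in ACI rats (log2 difference 0.66 ± 0.17, adjusted p = 0.0068).

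IRF7 was lower in basal than luminal cells of SD rats (log2 difference -1.45 ± 0.31, adjusted p = 0.00267) and was not called in ACI rats, at 0.44 ± 0.24. GBP2 was higher in SD basal cells (log2 difference 2.58 ± 0.65, adjusted p = 0.00668) and had 0.61 ± 0.35 in ACI rats. GBP5 had the highest SD difference, 5.28 ± 1.37, from 1.14, 52.98, 58.3 and 0 in luminal to 71.3, 527, 1324 and 307 in basal cells. The strains were not tested against each other, since their tables were normalized separately. With the rat as a block, the calls were 25 in each strain against 23 in ACI and 22 in SD rats without it. Over all genes the block fit called 6024 in ACI rats, of 13400 tested, and 6935 in SD rats, of 12875. IFIT3 in SD rats was called in 7 of 8 fits that each left out a sample.

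**Figure D1:**
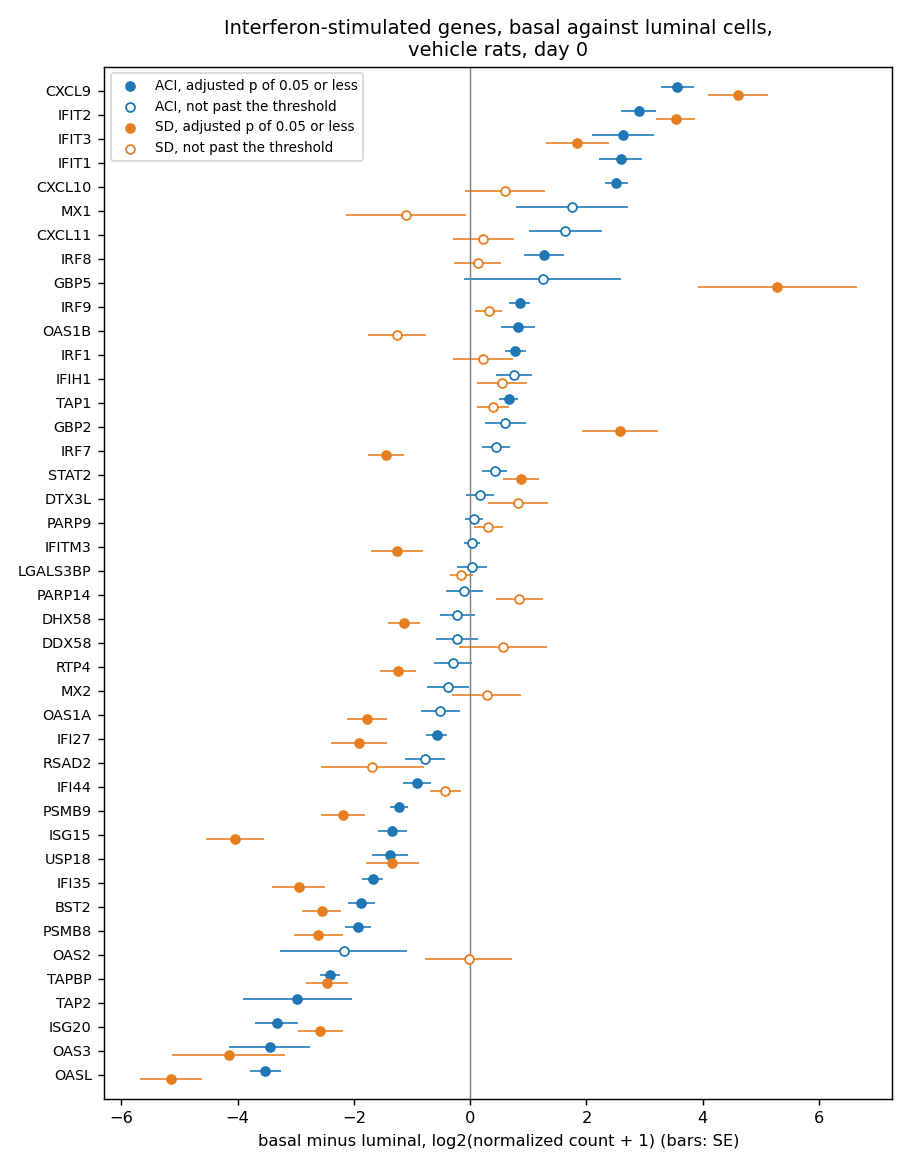
Basal minus luminal difference in log2(normalized count + 1) for each interferon-stimulated gene in vehicle rats on day 0, ACI in blue (3 rats) and SD in orange (4 rats). Points are limma estimates, bars are SE and filled points have an adjusted p of 0.05 or less. CXCL9, IFIT2 and IFIT3 lie to the right in both strains, OASL, OAS3, ISG20 and PSMB8 to the left.

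IFIT1 and, at lower levels, TAP2 stood apart between the strains and were singled out after their values were seen. IFIT1 ranged from 1.97 to 69.8 CPM in 34 ACI basal samples, 0 to 33.4 in 54 ACI luminal samples and 1.04 to 53.6 in 51 ACI CD45 samples. In SD rats, 17 samples of each sort had a median of 0 and a highest value of 0.668 in basal, 0.584 in luminal and 1.41 in CD45 cells. TAP2 had a median of 0.264 CPM in the ACI basal, 1.31 in the ACI luminal and 2.20 in the ACI CD45 samples. In SD basal and luminal samples its median was 0 and its highest value 0.116 and 0.154. The strains came from different experiments, and their difference was not tested. In the SD whole glands IFIT1 was tested only in blood endothelium, where the vehicle median was 0.206 CPM, while its paralog IFIT3 was at 387, 353 and 119.5 in the same rats. Reads of near-identical copies among the IFIT, OAS and GBP families could have been split or dropped in counting, so single members of these families are less certain.

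In young ACI rats, limma called 2 members higher in basal cells and 3 lower in CD45 cells of TGFBRi-treated rats on day 0, and 0 members on days 7 and 14. By limma, the day 0 effect was not shown to differ from the day 14 effect for any member. In basal cells OAS2 and GBP5 rose among 42 tested, against 3.34% of all genes called in either direction. The median difference was 0.17 over the members and 0.30 over all genes. GBP5, an interferon gamma-induced GTPase, was at 4.29, 58.7 and 30.03 normalized counts in vehicle and 213, 131 and 129 in TGFBRi-treated rats (log2 difference 2.85 ± 0.72, adjusted p = 0.0448). All treated samples were above all vehicle samples. OAS2, a 2′-5′ oligoadenylate synthetase, was at 0, 0 and 1.16 and 20.1, 12.8 and 3.04 (log2 difference 3.03 ± 0.76, adjusted p = 0.0439). These calls were narrow. With single day 0 basal samples left out, OAS2 was called in 2 of 6 fits and GBP5 in 3 of 6, and the 6 fits gave 0 to 4 calls. The 4 calls came without TGFBRi replicate 3, where 17.6% of all genes were called. OAS1A did not pass, at 240, 115 and 135 in vehicle and 46.3, 35.1 and 45.6 in treated rats (log2 difference -1.86 ± 0.51, adjusted p = 0.0568), although its groups did not overlap. On the recovered reads edgeR called 0 members, against 0.486% of all genes, and DESeq2 called 5, against 8.77% of the genes it gave an adjusted p. A limma fit of only the compared groups called 6, against 10.7%. At an unadjusted p under 0.05 there were 12, or 28.6% of the members tested, against 25.7% of all genes, a share near that of all genes. Marker sums moved in the same samples. Basal markers were at 7396 to 11160 CPM in vehicle and 2444 to 6101 in treated rats, leukocyte markers at 5.54 to 24.5 and 32.9 to 68.2, and macrophage markers at 9.67 to 17.04 and 39.2 to 90.6. Their part in the result was not tested.

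In CD45 cells of day 0, 3 of the members fell and 0 rose, against 2.85% of all genes called. LGALS3BP, a secreted glycoprotein, went from 2199, 5278 and 3018 to 283, 661 and 1168 normalized counts (log2 difference -2.44 ± 0.46, adjusted p = 0.0135). IFITM3, which blocks viral entry, went from 5722, 3668 and 4140 to 1045, 2010 and 1125 (log2 difference -1.73 ± 0.40, adjusted p = 0.0307). IFIT1 went from 453, 1108 and 1138 to 149, 233 and 270.4 (log2 difference -1.97 ± 0.50, adjusted p = 0.0475). These were called in 4 of 6, 2 of 6 and 1 of 6 fits that each left out a day 0 CD45 sample. A fit of only the compared groups called 0 members, against 0.215% of all genes. edgeR called 1, against 1.3%, and DESeq2 called 5, against 8.39%. At an unadjusted p under 0.05 there were 13, against 17.9% of all genes. Fibroblast markers in these CD45 samples were at 12480 to 32130 CPM in vehicle and 883 to 7182 in treated rats, basal markers at 111 to 342 and 4.13 to 6.57, and B cell markers at 14.5 to 825 and 338 to 922. Their part in the result was not tested.

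In luminal cells of day 0 limma called 0 of 42 members, against 1.01% of all genes, with 7 at an unadjusted p under 0.05, or 16.7% of those tested, against 19.8% of all genes. edgeR and DESeq2 called 0, against 0.0198% and 4.41%, and a fit of only the compared groups called 9, against 11.6%. LGALS3BP and DHX58, an RNA helicase, had the lowest unadjusted p, with differences of -1.36 ± 0.43 and -0.78 ± 0.28. The member median was -0.26 and that of all genes 0.21. On days 7 and 14 limma called 0 members in each fraction. At an unadjusted p under 0.05 there were 7, 3 and 3 on day 7 in basal, luminal and CD45 cells, against 5.57%, 7.72% and 4.27% of all genes. The 7 in basal cells were 16.7% of the members tested. On day 14 there were 0, 3 and 0, against 1.91%, 8.35% and 4.91%. edgeR called 0 members in each fraction on both days. DESeq2 called 1 in luminal cells on day 7, against 2.16% of all genes, and 1 on day 14, against 2.24%. The title of CD45 TGFBRi sample 3 of day 7 gives day 9 while its characteristics give day 7, which was used, and without it the day 7 CD45 comparison had 0 calls too. The day 0 effect minus the day 14 effect passed for 0 members in any fraction (limma, 5, 6 and 7 at an unadjusted p under 0.05 in basal, luminal and CD45 cells, against 12%, 8.39% and 15.9% of all genes), so the data do not show that the day 0 changes differed from those of day 14. DESeq2 called 4 of these differences in CD45 and 1 in basal cells, against 6.48% and 1.87% of all genes. In young SD rats limma called 0 members and 0 genes in the basal, luminal and CD45 sorts, with 3 members each at an unadjusted p under 0.05 and 0 by edgeR or DESeq2. Those 3 were 7.5%, 7.5% and 7.32% of the members, against 3.93%, 1.94% and 3.64% of all genes. GBP5 of SD basal cells was at 71.3, 527, 1324 and 307 in vehicle and 222, 94.8, 304 and 85.9 in treated rats, and OAS1A at 80.8, 80.1, 94.3 and 96.4 and 167, 67.8, 131 and 54.8.

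In adult ACI rats, limma called GBP5 and PARP14 lower in basal cells of virgin rats, and 0 of 41 members higher. Of 13442 genes, 336 were called higher and 837 lower, 8.73% in either direction, so the member calls lay under that share. At an unadjusted p under 0.05 there were 10, or 24.4% of the members tested, against 25.7% of all genes. GBP5 was at 120, 24.2, 47.5 and 9.28 normalized counts in the 4 vehicle rats and at 0 in all 4 TGFBRi-treated rats (adjusted p = 0.00313). The pooled vehicle level was 2.07 CPM, and 0 reads in the treated group allow up to 0.0308 CPM at 3 reads over the group. Against the pooled vehicle level GBP5 was then at least 67.2-fold lower. That bound covers counting error only and leaves out the wide spread between vehicle rats. Without vehicle replicate 1 the bound was 38.5-fold, and without another vehicle rat it was 68.2-fold to 82.4-fold. PARP14, an ADP-ribosyltransferase, was at 305, 326, 290 and 369 in vehicle and 103.7, 52.9, 50.6 and 5.24 in treated rats (log2 difference -3.13 ± 0.64, adjusted p = 0.00813). Neither gene overlapped between the groups, and both were called in all 8 fits that each left out a virgin basal sample. In a fit of only these groups GBP5 was called (adjusted p = 0.0445) and PARP14 was not (adjusted p = 0.0908). Without TGFBRi replicate 1 there were 4 calls, against 11.5% of all genes, and without TGFBRi replicate 2 there were 5, against 12.8%. The member median was -0.37 and that of all genes -0.25. On recovered reads edgeR called 3 members, against 6.55% of all genes, and DESeq2 called 3, against 13.6%. Leukocyte markers in these samples were at 2.86 to 195 CPM in vehicle and 0.083 to 5.72 in treated rats, macrophage markers at 7.11 to 930.5 and 10.4 to 22.8, and their part was not tested. Basal markers were at 8521 to 19210 and 7956 to 18040.

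Parous rats went a different way for GBP5. Vehicle parous basal cells were at 13.7, 10.9, 10.4 and 1.09 and treated ones at 23.7, 46.004, 27.6 and 7.38, and these groups overlapped. The parous effect exceeded the virgin effect by 6.65 ± 1.25 (log2, adjusted p = 0.0223), with 1.04% of all genes called, and it was called in 12 of 16 fits that each left out a basal sample. Because the treated virgin samples were all at 0, the size of this difference depends on the pseudocount. For PARP14 the corresponding difference was 3.44 ± 0.91 and did not pass (adjusted p = 0.0785). In parous basal cells limma called 0 members, against 0.00744% of all genes, in virgin CD45 cells 0, against 0.022%, and in parous luminal cells 0, against 0.0281%. At an unadjusted p under 0.05 there were 5, 1 and 4, against 5.04%, 5.5% and 13% of all genes. edgeR called 0, 0 and 0 there, against 0%, 0% and 0.0351%, and DESeq2 0, 0 and 0, against 0.107%, 0.51% and 1.95%. In virgin luminal and parous CD45 cells limma called 0 members and 0 genes. Between parous and virgin vehicle rats limma called 0 members in basal, luminal and CD45 cells, with 7, 5 and 1 at an unadjusted p under 0.05, against 3.04%, 9.56% and 1.53% of all genes. edgeR called 0, 0 and 0, and DESeq2 called 1, 1 and 0, against 0.107%, 1.22% and 0%. ISG15 of luminal vehicle cells was at 1129, 921, 972 and 1179.9 in virgin and 1036, 480.1, 1083 and 954 in parous rats, and the groups overlapped.

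**Figure D2:**
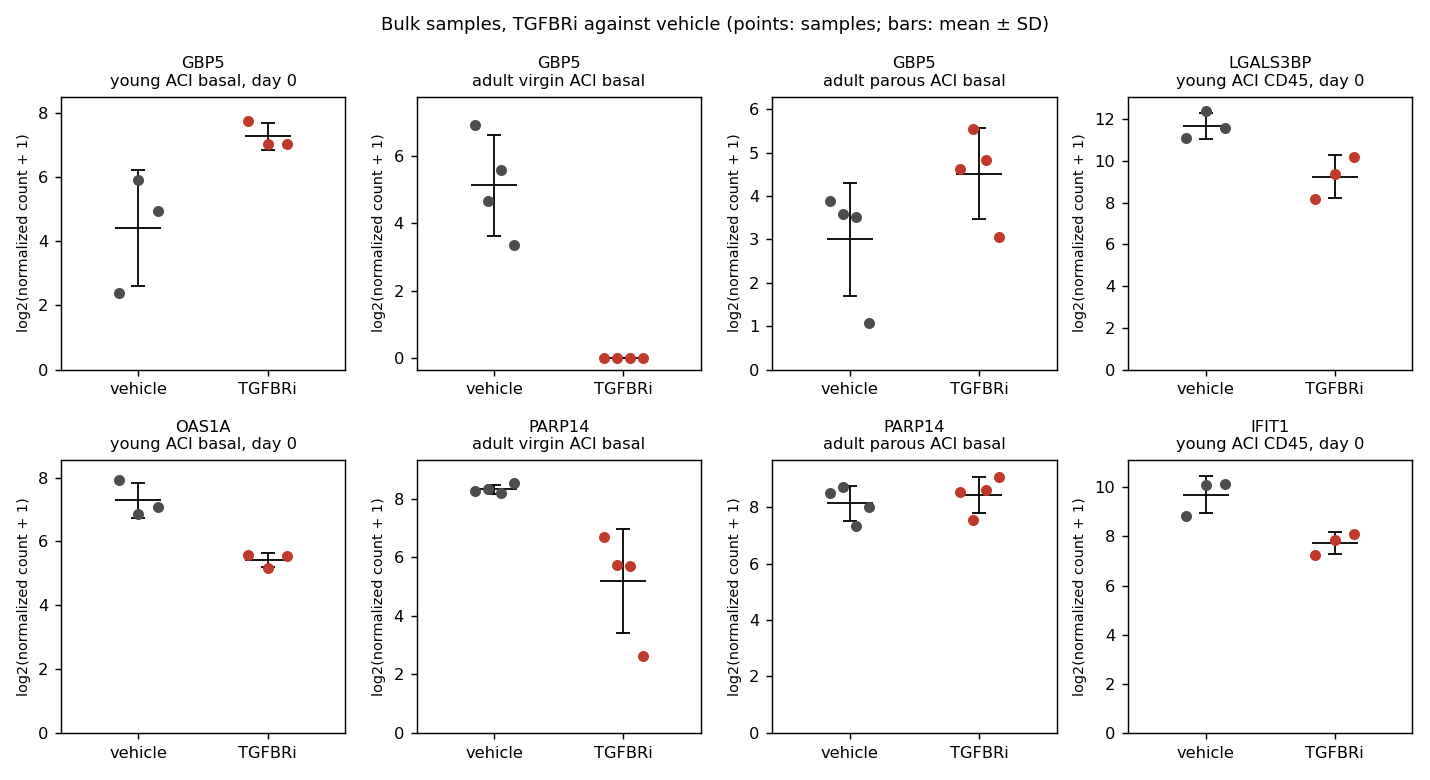
Values of each sample in log2(normalized count + 1) for the genes and bulk comparisons named at the top of each panel, vehicle in grey and TGFBRi in red, with mean and SD. GBP5 of adult virgin basal cells lies at 0 in all 4 treated rats, while the vehicle and treated rats of the parous group overlap.

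In the gland cells of NMU-treated SD rats, limma called 0 members in each comparison. In luminal cells 0 of 41 passed in tumor-free TGFBRi rats, against 0.948% of all genes, and 0 in tumor-bearing TGFBRi rats, against 0.212%. At an unadjusted p under 0.05 there were 9 and 6, against 19% and 16.2% of all genes. DESeq2 called 4 and 6, against 11.7% and 10.8% of the genes it gave an adjusted p, and edgeR 1 and 1, against 3.62% and 1.85%. Without vehicle luminal replicate 3 the calls were 8 and 5, against 14.3% and 10.8% of all genes. Without tumor-bearing TGFBRi luminal replicate 2 or 3 there was 1 call each, given without the share of all genes and no result about the members. Without tumor-bearing TGFBRi basal replicate 1 there were 2 calls in basal cells, against 9.01% of all genes. ISG15 was at 6869, 8296 and 1133 normalized counts in vehicle rats, 1189, 1175 and 1106 in tumor-free TGFBRi and 1138, 415 and 440.4 in tumor-bearing TGFBRi rats. The first and second vehicle values lay above all treated ones and the third among them. In basal cells limma called 0 members in tumor-free and tumor-bearing TGFBRi rats, where it called 0% and 1.31% of all genes. At an unadjusted p under 0.05 there were 1 and 7, against 1.22% and 19.6%. DESeq2 called 0 and 2, against 0% and 9.49%, and edgeR 0 and 0, against 0% and 2%. In CD45 cells limma called 0 and 0, where it called 0% and 0.015% of all genes. There 2 and 1 members had an unadjusted p under 0.05, against 3.04% and 7.6%, and either count test called 0 members. STAT2 of luminal cells, a subunit of the complex that binds the ISRE, was at 128, 58.3 and 319.8 in vehicle, 479, 544 and 437 in tumor-free TGFBRi and 541, 575 and 628 in tumor-bearing TGFBRi rats, without overlap. Its difference did not pass (adjusted p = 0.0839 and 0.0645). TAP1 was at 1533, 1156 and 1487 in vehicle and 3138, 2953 and 2791 in tumor-free TGFBRi rats (adjusted p = 0.134). Fibroblast markers of these luminal samples were at 265 to 477 CPM in vehicle, 407 to 2528 in tumor-free and 394 to 4618 in tumor-bearing TGFBRi rats, and epithelial markers at 7991 to 21950, 20830 to 22600 and 16410 to 19370. Their part was not tested.

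In NMU tumors limma called 0 members and 0 genes in EPCAM and CD45 cells. At an unadjusted p under 0.05 there were 2 and 5 members, against 2.15% and 6.65% of all genes. edgeR and DESeq2 called 0 and 0 members in EPCAM and 0 and 0 in CD45 cells. DESeq2 called 0.0465% and 0.698% of the genes it gave an adjusted p. EPCAM cells of tumors carried leukocyte markers at a median of 232.8 CPM. CXCL10 of these EPCAM cells was at 472, 431 and 1738 in vehicle and 442, 714 and 157 in TGFBRi-treated rats, and the groups overlapped. In the E2 experiment limma called 0 members for TGFBRi in luminal and CD45 cells with or without E2, and edgeR and DESeq2 also called 0. limma called 0% to 0.0223% of all genes in these 6 comparisons, edgeR 0%, and DESeq2 0% to 0.883% of the genes it gave an adjusted p. At an unadjusted p under 0.05 there were 5 in CD45 and 3 in luminal cells of tumor-free TGFBRi rats with E2, 3 and 1 in tumor-bearing ones, and 2 and 1 without E2. The shares of all genes were 6.27% and 6.09%, 8.35% and 6.35%, and 2.45% and 3.18%, in that order. CXCL10 had the lowest unadjusted p in CD45 cells of tumor-free TGFBRi rats with E2, at 356, 659.8, 338 and 613 in vehicle and between 721 and 1251 (median 986) in TGFBRi samples (log2 difference 1.05 ± 0.27, adjusted p = 0.65). Without CD45 TGFBRi tumor-bearing replicate 2, 12 of 42 members were called lower in tumor-bearing TGFBRi rats with E2, against 13.2% of all genes called. That group then held 1 rat, the spread came from the other groups, and the fit takes the lone rat to vary as they do. Among vehicle rats, E2 against none gave 0 calls by limma and edgeR in CD45 cells, where limma called 0.282% of all genes, and in luminal cells, where it called 1.48%, with 8 and 10 members at an unadjusted p under 0.05, against 12.1% and 14.5% of all genes. DESeq2 called 3 and 2, against 2.02% and 5.24% of the genes it gave an adjusted p. ISG15 of luminal cells was at 865, 3517, 1557 and 497 without and 346, 559.7, 462 and 431 with E2 (log2 difference -1.48 ± 0.45, adjusted p = 0.11). OASL of CD45 cells differed by -1.08 ± 0.23 (adjusted p = 0.0558).

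In the sorted single cells of day 0, called members were mostly higher after TGFBRi in basal cells of both strains and in SD mature luminal cells, and were split in direction in the other epithelial classes. Among antiviral effectors, 9 of 21 rose and 2 fell in ACI basal cells, 9 of 21 and 2 in ACI luminal progenitors, 3 of 17 and 2 in ACI mature luminal cells, 9 of 20 and 1 in SD basal cells, 6 of 22 and 2 in SD luminal progenitors and 9 of 18 and 1 in SD mature luminal cells. Cell classes were rebuilt from clusters and fixed markers, with the 43 members kept out of the clustering, and all class names mean cells that are like that class by markers. In ACI rats 13 of 39 rose in basal cells, against 15.9% of all genes, and 4 fell, against 17.7%. In luminal progenitors 9 of 38 rose, against 14.8%, and 5 fell, against 15%. In mature luminal cells 4 of 32 rose, against 14.3%, and 5 fell, against 11.6%. In SD rats 15 of 39 rose in basal cells, against 15.3%, and 1 fell, against 14.2%. In SD luminal progenitors 9 of 40 rose, against 14.5%, and 4 fell, against 14%. In SD mature luminal cells 15 of 33 rose, against 16.2%, and 2 fell, against 15.4%. The SD member medians were 1.04, 0.42 and 0.61 in that order of classes, and those of all genes 0.07, 0.06 and 0.03. The few sorted SD fibroblasts gave 0 of 35, with 0% of all genes raised and 0% lowered, 2 members at an unadjusted p under 0.05 and 0 calls by DESeq2.

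RSAD2, the enzyme viperin, was at 3.14, 1.29 and 1.02 CPM in ACI luminal progenitors of vehicle rats and 13.5, 7.13 and 10.7 in treated rats (log2 difference 2.72 ± 0.40, adjusted p = 0.0016). OASL of the same cells was at 18.02, 19.8 and 14.96 and 47.8, 38.95 and 45.1 (log2 difference 1.66 ± 0.19, adjusted p = 0.000203). All treated rats were above all vehicle rats for both. In ACI basal cells CXCL10 was at 91.2, 89.5 and 46.1 and 148, 146 and 151 (log2 difference 1.19 ± 0.19, adjusted p = 0.0178), and OAS1A at 5.54, 4.10 and 2.63 and 9.22, 7.54 and 8.51 (log2 difference 1.20 ± 0.28, adjusted p = 0.00228). TAP1 of ACI basal cells rose by 0.86 ± 0.14 (87.8, 80.4 and 60.2 to 112, 130.4 and 113), as it did in SD mature luminal cells, by 1.00 ± 0.22, from 60.3, 55.6 and 52.3 in vehicle rats to between 73.9 and 109.7 (median 87.9) in treated rats. These calls held with each rat left out in turn. The bulk samples of young ACI rats on day 0 did not all go the same way. OAS1A was lower in treated bulk basal cells, without a call. LGALS3BP was raised in sorted ACI luminal progenitors, while its difference in bulk luminal cells was negative and not called. Bulk and single-cell samples came from different rats, and the difference between them was not tested.

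PARP14 fell in 3 of 3 ACI and in 3 of 4 SD classes. In ACI luminal progenitors it went from 111, 100.5 and 99.4 to 42.8, 48.9 and 42.1 CPM (log2 difference -0.90 ± 0.14, adjusted p = 0.000456), and in ACI mature luminal cells from 169.5, 149 and 133 to 78.5, 82.7 and 91.8 (log2 difference -0.60 ± 0.15, adjusted p = 0.00436). DDX58, the RNA sensor RIG-I, was called lower in 3 of 3 ACI classes, though in only 2 of 6, 3 of 6 and 4 of 6 fits that each left out a basal, luminal progenitor or mature luminal sample. DTX3L, the ubiquitin ligase partner of PARP9, fell in ACI luminal progenitors from 52.3, 47.6 and 45.99 to 21.7, 28.5 and 23.05 (log2 difference -0.67 ± 0.17, adjusted p = 0.00326). IFI27 and ISG20, also counted after the values were seen, were raised in 3 of 3 ACI and in 3 of 4 SD classes. IFI27 of ACI luminal progenitors was at 498, 494 and 424 and 816, 699.6 and 667 (log2 difference 0.93 ± 0.13, adjusted p = 0.000708).

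The SD calls rested on few vehicle rats. In basal cells BST2, a tether of budding virions, was at 19.6, 23.1 and 11.7 in vehicle and between 22.6 and 88.9 (median 40.3) in treated rats (log2 difference 1.82 ± 0.42, adjusted p = 0.0181), called in 8 of 9 fits. ISG15 of mature luminal cells was at 15.99, 14.03 and 13.8 and between 17.5 and 71.6 (median 24.7) (log2 difference 1.45 ± 0.43, adjusted p = 0.0491), called in 6 of 9. Basal calls numbered 5 without vehicle rat 1 and 1 without vehicle rat 3, against 16 with all rats. Over all genes, 437 rose and 585 fell without rat 1, and 120 and 176 without rat 3, against 2158 and 2002 with all rats. These fits tested 14034, 13999 and 14133 genes. Luminal progenitor calls numbered 0 without any 1 of the 3 vehicle rats, 7 without TGFBRi rat 11 and 6 without TGFBRi rat 13, against 13. Over all genes, calls without vehicle rats 1, 2 and 3 were 0 raised and 2 lowered, 80 and 168, and 8 and 47. Without TGFBRi rats 11 and 13 they were 1258 and 1261, and 1279 and 1173, against 1959 and 1883 with all rats. Mature luminal calls numbered 5, 10 and 9 without vehicle rat 1, 2 or 3, against 17. Over all genes, 834 rose and 750 fell, 1208 and 1208, and 1220 and 1108 in that order, against 2095 and 1993. Different clusters held most of the basal class in the 2 groups of each strain. In ACI rats 74.3% of treated basal cells were in cluster 0, led by HMOX1 and SESN2, while vehicle basal cells were in clusters 2, 3 and 5 (32.3%, 39.8% and 15.5%). In SD rats clusters 2 and 3 held 74.2% and 24.0% of vehicle basal cells, and clusters 0, 1 and 3 held 35.8%, 28.7% and 29.1% of treated ones, with 98.8% of cluster 1 from rat 14. SD luminal progenitors of vehicle rats were in clusters 15 and 7 (47.2% and 41.5%), those of treated rats also in clusters 8, 9 and 11, which were mostly of rats 11, 12 and 14. SD mature luminal cells were in cluster 14 for 97.3% of vehicle and in clusters 13 and 14 for 51.3% and 48.7% of treated cells, and ACI mature luminal cells in cluster 6 for 72.6% of vehicle and in clusters 6 and 7 for 46.8% and 52.6% of treated cells. Leukocyte markers summed to 0.363 to 0.911 CPM in SD vehicle and 0.799 to 2.00 in treated basal cells, and epithelial markers to 1260 to 1459 and 1471 to 3075. In ACI luminal progenitors the markers of the class summed to 11190 to 14090 and 18870 to 23750, epithelial markers to 5781 to 7281 and 8425 to 9135, and fibroblast markers to 0.514 to 0.911 and 2.27 to 3.36. In ACI mature luminal cells epithelial markers summed to 5214 to 6607 and 6798 to 8256, and leukocyte markers to 2.53 to 3.58 and 1.02 to 1.59. In SD luminal progenitors the markers of the class summed to 9733 to 11520 and 11790 to 20040, and macrophage markers to 2.74 to 3.29 and 4.22 to 7.10, and in SD mature luminal cells macrophage markers summed to 1.19 to 2.31 and 2.71 to 5.75. Their part was not tested. Before scaling, the median gene of the sorted epithelial classes was 0.207 to 0.306 lower (log2) in treated rats, and scaling removed most of this shift. Differences are relative to it.

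In vehicle whole glands, the levels of these genes differed between cell classes. The order below is over the 12 named classes and leaves out unnamed clusters. The gland data held 103524 cells in 9 libraries. As a description, IFIT3 had a median of 353 CPM in blood endothelium, 161 in macrophages and 147 in lymphatic endothelium, with overlapping rats, and 2.17 in mature luminal cells. Among the named classes ISG15 was highest in macrophages (311 to 415), above lymphatic endothelium (109 to 205) and blood endothelium (115 to 192), which overlapped each other. CXCL10, a T cell attractant, had a median of 987 in macrophages, 601 in lymphatic endothelium, 162 in blood endothelium and 6.45 in mature luminal cells. CXCL9 was highest in blood endothelium (483 to 729), above fibroblasts (39.5 to 87.8). BST2 reached 1051 to 1680 in blood endothelium and 1140 to 1490 in lymphatic endothelium. IRF8, a factor of lymphoid and myeloid cells, was at a median of 362 in B cells, 337 in NK cells and 134 in macrophages. PSMB8 was highest in T cells (322 to 379). OASL was highest in macrophages (331 to 803), then luminal progenitors (120 to 152), and ISG20 in mature luminal cells (88.2 to 162). GBP2 had a median of 830 in lymphatic endothelium, 596 in Schwann cells and 450 in blood endothelium, with overlapping rats. MX1, a GTPase that blocks viral replication, had medians of 31.9 in B cells and 24.4 in T cells, and of 0.844 in luminal progenitors, 0.581 in basal and 0.556 in mature luminal cells.

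In mature luminal cells, macrophages and lymphatic endothelium of the whole gland, most of the called members were lower after TGFBRi, while most members were not called. In mature luminal cells 17 of 39 fell, against 15.5% of all genes, and 2 rose, against 12.7%. In macrophages 10 of 40 fell, against 5.51%, and 0 rose, against 3.11%. In lymphatic endothelium 7 of 35 fell, against 9.31%, and 0 rose, against 6.98%. The member medians were -0.62, -0.42 and -0.33, and those of all genes 0.02, 0.01 and 0.02. In sorted mature luminal cells of the same strain and day, 15 of 33 rose and 2 fell, and 8 members were called in both. LGALS3BP and IFI35 rose in both, and IFIH1 and PARP14 fell in both. ISG15, IRF8, RTP4 and TAP1 went opposite ways, with log2 differences of 1.45 ± 0.43, 1.14 ± 0.53, 1.17 ± 0.35 and 1.00 ± 0.22 in the sorted cells and -1.16 ± 0.28, -1.61 ± 0.33, -1.23 ± 0.29 and -0.65 ± 0.12 in the gland. The sorted and gland libraries were separate experiments of different chemistry, and the difference between them was not tested. By role, gland mature luminal cells had 3 of 3 chemokines, 2 of 3 sensors, 3 of 6 signalling genes and 7 of 20 effectors lower.

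In mature luminal cells RSAD2 was at 31.9, 47.2 and 47.3 CPM in the vehicle rats and between 0.853 and 4.61 (median 2.42) in the TGFBRi-treated rats (log2 difference -4.11 ± 0.31, adjusted p = 5.2e-06). All treated rats were far below all vehicle rats. IRF8 was at 17.4, 26.7 and 20.5 CPM in the vehicle rats and between 4.27 and 11.6 (median 5.63) in the TGFBRi-treated rats (log2 difference -1.61 ± 0.33, adjusted p = 0.00211), again without overlap. CXCL9 was at 9.87, 3.61 and 12.4 CPM in the vehicle rats and between 1.46 and 4.28 (median 1.90) in the TGFBRi-treated rats (log2 difference -1.79 ± 0.50, adjusted p = 0.00966), with overlap. TAP1 was at 104.4, 128 and 138 CPM in the vehicle rats and between 75.6 and 91.8 (median 80.4) in the TGFBRi-treated rats (log2 difference -0.65 ± 0.12, adjusted p = 0.0013), and ISG15 at 24.4, 66.97 and 54.2 CPM in the vehicle rats and between 17.3 and 29.98 (median 20.8) in the TGFBRi-treated rats (log2 difference -1.16 ± 0.28, adjusted p = 0.00899), where 1 vehicle rat lay among the treated ones. IFIT3 was low, at 4.61, 1.67 and 2.17 CPM in the vehicle rats and between 0 and 1.38 (median 0.410) in the TGFBRi-treated rats (log2 difference -2.48 ± 0.80, adjusted p = 0.0165), called in 8 of 9 fits. LGALS3BP and IFI35 were the 2 that rose, by 0.61 ± 0.22 and 0.48 ± 0.19. A single cluster held this class in both groups. Its own markers summed to 1888 to 2395 CPM in vehicle and 2476 to 4179 in treated rats, basal markers to 113 to 833 and 29.2 to 59.6, luminal progenitor markers to 627 to 1636 and 193 to 321, blood endothelium markers to 12.8 to 22.9 and 3.69 to 14.0, and leukocyte markers to 19.3 to 108.3 and 67.4 to 163. Their part was not tested.

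In macrophages ISG15 was at 357, 311 and 415 CPM in the vehicle rats and between 103.95 and 245 (median 207) in the TGFBRi-treated rats (log2 difference -1.14 ± 0.26, adjusted p = 0.0192), with no overlap. IFIT3 was at 39.96, 161 and 177 CPM in the vehicle rats and between 13.5 and 44.4 (median 20.9) in the TGFBRi-treated rats (log2 difference -2.66 ± 0.49, adjusted p = 0.0306), where 1 vehicle rat lay among the treated rats. OASL was at 331, 803 and 426 CPM in the vehicle rats and between 87.6 and 244 (median 185) in the TGFBRi-treated rats (log2 difference -1.82 ± 0.37, adjusted p = 0.0291), and IFITM3 at 84.2, 56.7 and 99.4 CPM in the vehicle rats and between 26.9 and 45.02 (median 39.9) in the TGFBRi-treated rats (log2 difference -1.33 ± 0.24, adjusted p = 0.00377). Neither overlapped between groups. CXCL10 was called in 2 of 9 fits only (log2 difference -1.20 ± 0.35, adjusted p = 0.0941). Without vehicle rat 1 there were 17 calls, 15 of them lower. Over all genes 383 rose and 880 fell in that fit, of 12818, against 404 and 717 with all rats, of 13008. Macrophage markers summed to 5454 to 11050 in vehicle and 4297 to 7643 in treated rats, leukocyte markers to 1513 to 1549 and 1826 to 2015, and luminal progenitor markers to 596 to 1273 and 582 to 906, and their part was not tested. Cluster 21, which had 4 macrophage markers raised but 0 among its top 10 genes by fold, led by SLPI, HAVCR2 and CFP and with 4 genes of MHC class II among the 10, held 46.4% of vehicle and 46.9% of treated macrophages, cluster 22 43.97% and 30.3%, and cluster 3 9.62% and 22.8%. In lymphatic endothelium, with 90 to 199 cells per vehicle and 31 to 85 per treated rat, RSAD2 was at 149.5, 66.5 and 153 CPM in the vehicle rats and between 0 and 9.91 (median 7.28) in the TGFBRi-treated rats (log2 difference -4.63 ± 0.55, adjusted p = 1.11e-06). ISG15 was at 180.1, 109 and 205 CPM in the vehicle rats and between 39.7 and 88.7 (median 62.9) in the TGFBRi-treated rats (log2 difference -1.52 ± 0.30, adjusted p = 7.78e-05), and IFIT3 at 152, 76.7 and 147 CPM in the vehicle rats and between 33.1 and 92.8 (median 45.5) in the TGFBRi-treated rats (log2 difference -1.39 ± 0.36, adjusted p = 0.00643). RSAD2 and ISG15 did not overlap between groups, and IFIT3 did.

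In mural cells, blood endothelium and basal cells of the same glands, most of the called members were higher after TGFBRi. In mural cells, the pericytes and smooth muscle cells of vessels, 16 of 39 rose, against 12% of all genes, and 3 fell, against 15.3%. In blood endothelium 14 of 41 rose, against 14%, and 0 fell, against 18.3%. In basal cells 16 of 39 rose, against 22.8%, and 6 fell, against 21%. The member medians were 0.56, 0.34 and 0.41, and those of all genes 0.02, -0.02 and 0.09.

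CXCL10 of mural cells was at 95.2, 179.6 and 146 CPM in the vehicle rats and between 342 and 733 (median 480) in the TGFBRi-treated rats (log2 difference 1.70 ± 0.26, adjusted p = 0.0017). IFIT3 was at 16.9, 21.04 and 26.5 CPM in the vehicle rats and between 39.1 and 94.4 (median 56.3) in the TGFBRi-treated rats (log2 difference 1.28 ± 0.28, adjusted p = 0.00346), and IFIH1, the RNA sensor MDA5, at 15.7, 25.96 and 18.9 CPM in the vehicle rats and between 39.5 and 87.04 (median 50.1) in the TGFBRi-treated rats (log2 difference 1.33 ± 0.30, adjusted p = 0.00643). All treated rats were above all vehicle rats for these 3 genes. RTP4 rose by 1.46 ± 0.30, IRF8 by 1.37 ± 0.31, OAS1A by 1.33 ± 0.45 and TAP1 by 0.73 ± 0.22. IRF7, the factor that amplifies type I interferon output, was at 39.7, 47.6 and 62.2 CPM in the vehicle rats and between 68.5 and 187 (median 106.9) in the TGFBRi-treated rats (log2 difference 0.99 ± 0.28, adjusted p = 0.0302), called in 7 of 9 fits. Without vehicle rat 2, 12 members were called, 11 of them higher, against 19 with all rats. Over all genes 900 rose and 1350 fell in that fit, against 1553 and 1991 with all rats. RSAD2, GBP2 and GBP5 were the 3 that fell. Leukocyte markers in mural cells summed to 26.6 to 66.4 in vehicle and 59.6 to 101.5 in treated rats, mature luminal markers to 178 to 535 and 62.4 to 126, and basal markers to 2216 to 5161 and 5248 to 8728, and their part was not tested.

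In blood endothelium CXCL10 was at 162, 238 and 142 CPM in the vehicle rats and between 531 and 770.2 (median 659) in the TGFBRi-treated rats (log2 difference 1.63 ± 0.18, adjusted p = 3.16e-05), without overlap. RTP4, a chaperone of receptors bound for the cell surface, was at 57.7, 94.98 and 42.4 CPM in the vehicle rats and between 122 and 181 (median 149.8) in the TGFBRi-treated rats (log2 difference 1.04 ± 0.23, adjusted p = 0.0042), and IFIH1 at 34.8, 39.7 and 31.1 CPM in the vehicle rats and between 56.3 and 94.5 (median 81.5) in the TGFBRi-treated rats (log2 difference 0.96 ± 0.20, adjusted p = 0.00125). OAS1A rose by 0.85 ± 0.23 and IRF7 by 0.56 ± 0.15, from 76.1, 97.2 and 113 in vehicle rats to between 142 and 200.1 (median 160.4) in treated rats. Without vehicle rat 1 there were 6 calls. Over all genes 1228 rose and 1707 fell in that fit, against 1842 and 2394 with all rats. IFIT3 was not called in this class, where its vehicle level was highest, at 387, 353 and 119.5 CPM in the vehicle rats and between 283 and 403 (median 346) in the TGFBRi-treated rats (log2 difference 0.03 ± 0.28, adjusted p = 0.961). Leukocyte markers summed to 33.7 to 73.3 in vehicle and 28.0 to 85.8 in treated rats, and the class's own markers to 1913 to 2195 and 2304 to 2787.

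In gland basal cells PARP9 was at 34.9, 30.8 and 24.02 CPM in the vehicle rats and between 51.1 and 86.6 (median 63.4) in the TGFBRi-treated rats (log2 difference 1.14 ± 0.23, adjusted p = 0.00137), and its partner DTX3L at 12.4, 14.4 and 15.4 CPM in the vehicle rats and between 21.7 and 34.7 (median 28.02) in the TGFBRi-treated rats (log2 difference 1.05 ± 0.20, adjusted p = 0.000961). Neither overlapped. IFI44 was at 7.27, 3.54 and 5.34 CPM in the vehicle rats and between 8.91 and 18.2 (median 13.5) in the TGFBRi-treated rats (log2 difference 1.34 ± 0.31, adjusted p = 0.00323). Groups did not overlap for IFI44 either. IRF8 rose by 0.97 ± 0.23 and TAP1 by 0.59 ± 0.14. Without vehicle rat 1, 2 or 4, 11, 14 and 10 members rose and 7, 3 and 5 fell, against 16 and 6. Over all genes 2415, 2220 and 2918 rose and 2605, 2440 and 3214 fell, against 3348 and 3080. The class was held by different clusters in the 2 groups, with 79.6% of vehicle cells in cluster 11, led by NRG1, KRT17 and FST, and 94.9% of treated cells in cluster 19, led by IL17B and KRT14. Epithelial markers summed to 3464 to 3876 in vehicle and 2281 to 2698 in treated rats and basal markers to 11860 to 12580 and 13850 to 19260, and their part was not tested.

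The other classes had calls in both directions. In luminal progenitors 7 of 41 rose, against 12.4%, and 4 fell, against 14.2%. IFI35 rose from 10.8, 23.5 and 12.2 to between 26.3 and 44.3 (median 35.8) CPM (log2 difference 1.04 ± 0.25, adjusted p = 0.0135), and OASL went from 151, 120.5 and 152 to between 21.6 and 92.4 (median 57.1) (log2 difference -1.42 ± 0.44, adjusted p = 0.0418, called in 7 of 9 fits). Without vehicle rat 1 there were 5 calls and without vehicle rat 4 there were 7, against 11. Over all genes 1021 rose and 1002 fell without rat 1, and 1296 and 1251 without rat 4, against 1770 and 2031. Basal markers in luminal progenitors summed to 190.5 to 514 CPM in vehicle and 37.7 to 106.1 in treated rats, epithelial markers to 8859 to 11630 and 5519 to 7874, and cluster 2 held 21.2% of vehicle and 37.7% of treated cells of the class. Their part was not tested. In fibroblasts 6 of 40 rose, against 12.7%, and 6 fell, against 16.1%. CXCL10 rose there from 104.8, 146 and 60.6 to between 156 and 302 (median 200.2) (log2 difference 0.83 ± 0.25, adjusted p = 0.029), and OASL fell from 7.54, 19.5 and 9.31 to between 3.42 and 5.10 (median 4.33) (log2 difference -1.70 ± 0.31, adjusted p = 0.000694). In Schwann cells 3 of 36 rose, against 3.42%, and 2 fell, against 5.7%. IRF1, a factor induced mainly by interferon gamma, was at 132, 69.6 and 162 CPM in the vehicle rats and between 233 and 395 (median 290) in the TGFBRi-treated rats (log2 difference 1.19 ± 0.27, adjusted p = 0.00809).

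In B cells 3 of 40 rose, against 8.83%, and 7 fell, against 8.68%. BST2 fell from 57.6, 82.3 and 208 to between 20.4 and 38.4 (median 28.8) (log2 difference -2.05 ± 0.46, adjusted p = 0.0168), and TAP1 rose from 84.2, 83.7 and 49.7 to between 87.6 and 135 (median 114) (log2 difference 0.54 ± 0.16, adjusted p = 0.0317). Without vehicle rat 2 there were 4 calls, 2 each way. Over all genes 670 rose and 809 fell in that fit, against 1129 and 1109 with all rats. Cluster 5 held 57.02% of vehicle and cluster 4 held 68.7% of treated B cells. B cell markers summed to 1039 to 1646 CPM in vehicle and 1783 to 2322 in treated rats and epithelial markers to 60.9 to 117 and 26.7 to 52.03, and their part was not tested. In T cells 4 of 38 rose, against 3.75%, and 2 fell, against 2.68%. IFI27 of T cells was at 369, 428 and 281 CPM in the vehicle rats and between 470.1 and 564 (median 536) in the TGFBRi-treated rats (log2 difference 0.56 ± 0.10, adjusted p = 0.0088), and TAP1 at 130.3, 142 and 124 CPM in the vehicle rats and between 164 and 200.2 (median 191) in the TGFBRi-treated rats (log2 difference 0.52 ± 0.11, adjusted p = 0.0147). Neither overlapped between groups. T cell calls numbered 2 without vehicle rat 2 and 3 without TGFBRi rat 14, against 6. Over all genes 231 rose and 204 fell, and 295 and 186, in that order, against 480 and 343. In NK cells 1 of 36 rose, against 2.51%, and 2 fell, against 1.68%. BST2 of NK cells was at 310.4, 311 and 274 CPM in the vehicle rats and between 146 and 227 (median 189) in the TGFBRi-treated rats (log2 difference -0.72 ± 0.16, adjusted p = 0.00391). NK cell calls numbered 1 without vehicle rat 1 and 6 without vehicle rat 4, against 3. Over all genes 219 rose and 194 fell, and 451 and 259, in that order, against 256 and 171.

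Some genes, picked after the values of all classes were seen, had calls in many gland classes. GBP2 was called lower in 9 of 12 classes and GBP5 in 8 of 12, and 0 classes had either of them raised, while the share of all genes lowered was 1.68% to 21% by class. In fibroblasts GBP2 was at 100.9, 113 and 72.7 CPM in the vehicle rats and between 39.9 and 68.8 (median 48.1) in the TGFBRi-treated rats (log2 difference -1.14 ± 0.18, adjusted p = 0.000414). In B cells it was at 52.3, 57.6 and 40.8 CPM in the vehicle rats and between 23.2 and 26.5 (median 23.9) in the TGFBRi-treated rats (log2 difference -1.13 ± 0.11, adjusted p = 5.96e-05), and in lymphatic endothelium at 497, 829.9 and 1055 CPM in the vehicle rats and between 112 and 428 (median 193) in the TGFBRi-treated rats (log2 difference -2.05 ± 0.36, adjusted p = 0.0247). None of these groups overlapped. In the remaining classes GBP2 differed by -0.62 ± 0.29 in blood endothelium, 0.09 ± 0.21 in T cells and 0.19 ± 0.33 in NK cells, which did not pass. In gland basal and luminal progenitor cells vehicle rat 4 was well above the other 2 vehicle rats, with GBP2 at 20.4, 31.7 and 148 in basal cells of vehicle rats and between 7.86 and 24.6 (median 9.66) in treated rats. In the sorted cells of the same strain GBP2 was called in 0 of 4 classes. OASL was lowered in 7 of 12 gland classes and raised in mural cells, and RSAD2 was lowered in 5 and raised in 0. In the sorted cells OASL was raised in 2 of 3 ACI and 1 of 4 SD classes, RSAD2 in 2 of 3 and 1 of 4. The gland and the sorted cells were separate experiments, and this difference was not tested.

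OAS1A and IFI27 were raised in 5 of 12 gland classes each and lowered in 0, IRF7 in 4 and 0, and PSMB8 was called in 0 gland classes. OAS1A of fibroblasts was at 2.75, 4.91 and 4.56 CPM in the vehicle rats and between 8.95 and 10.96 (median 9.63) in the TGFBRi-treated rats (log2 difference 1.01 ± 0.23, adjusted p = 0.00531), with all treated rats above all vehicle rats. PARP14, lowered in 3 of 3 sorted ACI and 3 of 4 sorted SD classes, was raised in 2 and lowered in 1 of 12 gland classes.

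**Figure D3:**
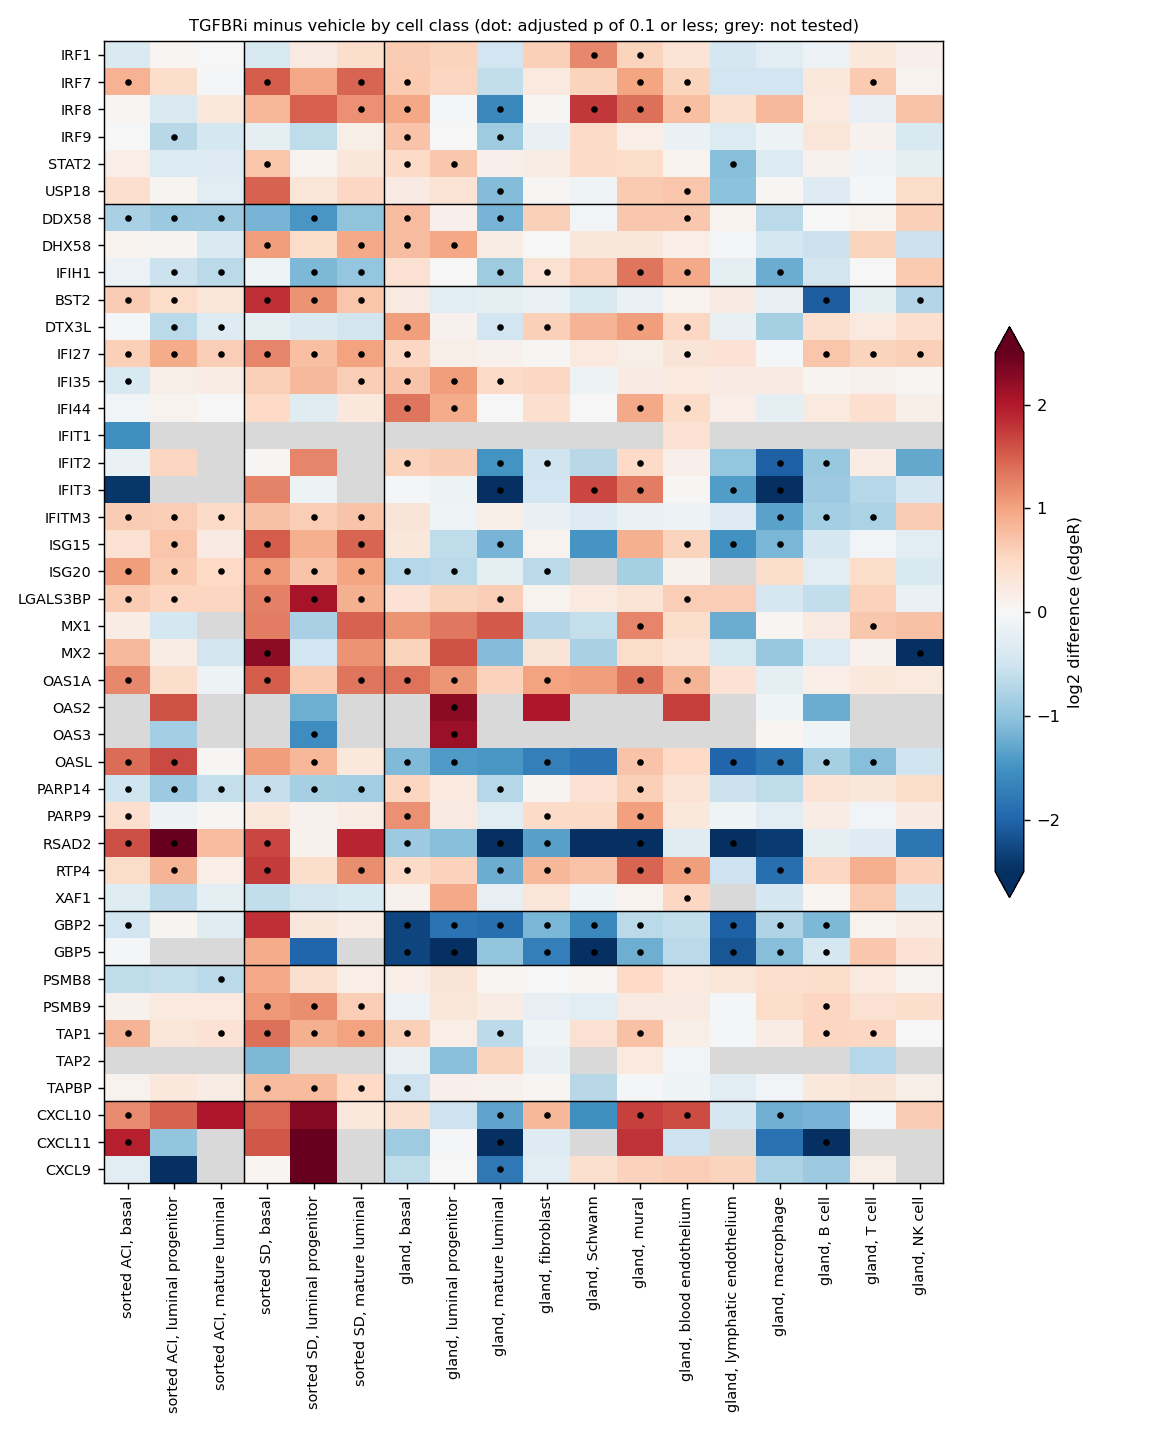
TGFBRi minus vehicle log2 difference (edgeR, colour scale held at 2.5 in either direction) for each gene, in rows grouped by role, and each cell class, in columns grouped by experiment. Dots mark an adjusted p of 0.1 or less, and grey cells were not tested. The GBP2 and GBP5 rows are blue across most gland classes, and the mature luminal and macrophage columns are bluer than the mural and blood endothelium columns.

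The class differences were tested within rats, for 3 pairs of classes picked after the class values were seen. The TGFBRi effect in mature luminal cells was below that in mural cells for 18 of 39 members and above it for 0, against 12.3% of all genes called. IFIT3 had -3.04 ± 0.56, IRF8 -3.04 ± 0.47, CXCL10 -2.85 ± 0.53, ISG15 -1.99 ± 0.44, IRF7 -1.56 ± 0.38 and TAP1 -1.32 ± 0.24 as the difference of log2 effects over 9 rats (limma, adjusted p = 0.0187, 0.0125, 0.0203, 0.0319, 0.0429 and 0.0177). The effect in macrophages was below that in blood endothelium for 13 of 39 members and above it for 0, against 9.13% of all genes. CXCL10 had -2.77 ± 0.43, IFIT3 -2.65 ± 0.77, ISG15 -1.76 ± 0.34 and IRF7 -1.04 ± 0.23 (adjusted p = 0.0199, 0.0871, 0.0327 and 0.0486). Between the luminal classes, the effect in mature luminal cells was below that in luminal progenitors for 12 of 39 members and above it for 1, TAP2, against 18.1% of all genes. IRF8 had -1.85 ± 0.39, CXCL9 -1.54 ± 0.53, IRF1 -1.11 ± 0.32, IRF7 -1.07 ± 0.25 and STAT2 -0.55 ± 0.18 (adjusted p = 0.0252, 0.0939, 0.0582, 0.0301 and 0.0814). Gland libraries shared 1.11% to 2.51% of their cell barcodes by pair.

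**Figure D4:**
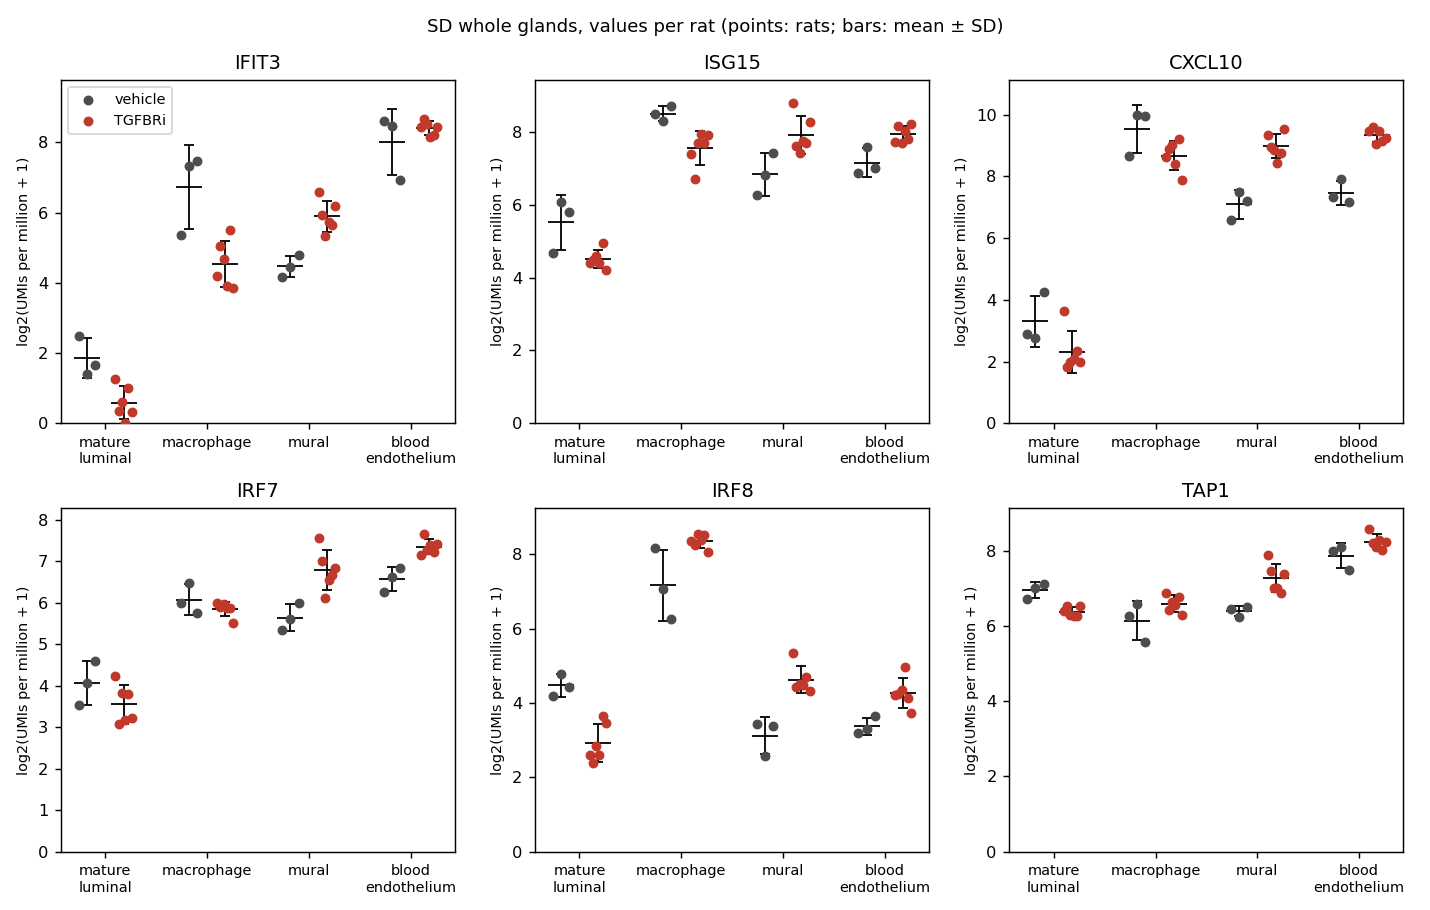
log2(CPM + 1) of 6 genes in 4 cell classes of SD whole glands, with a point per rat, vehicle in grey (3 rats) and TGFBRi in red (6 rats), and bars for mean and SD. IFIT3 and ISG15 lie lower in treated macrophages, and CXCL10 lies higher in treated mural cells and blood endothelium.

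Genes of the pathway that are not on the list were counted in the same fits, from a list of ligands, receptors and kinases, induction genes and further effectors. The shares of all genes called in each class are those given above for the members. In gland mature luminal cells 16 of 44 fell, against 15.5% of all genes, and 1 rose, against 12.7%. Among them were 8 of 12 receptors and kinases, JAK1 (-0.60), JAK2 (-0.67), TYK2 (-0.69), IFNAR1 (-0.60), IFNAR2 (-0.83), IFNGR2 (-0.55), IFNLR1 (-0.47) and IL10RB (-1.15), given as log2 differences. Of the same 12 receptors and kinases, 6 fell (IFNGR1, SOCS1, IFNAR2, IL10RB, IFNAR1 and IFNGR2) and 2 rose in blood endothelium, where 14 members rose and 0 fell. In gland luminal progenitors 4 fell and 2 rose, beside 7 members raised and 4 lowered, and in lymphatic endothelium 4 fell and 0 rose, beside 0 members raised and 7 lowered. In gland basal cells 2 fell and 4 rose, beside 16 members raised and 6 lowered. Lower receptors and kinases thus stood beside raised members in blood endothelium and beside lowered members in mature luminal cells. In macrophages 7 of 45 fell, against 5.51%, and 2 rose, against 3.11%. In lymphatic endothelium 8 of 41 fell, against 9.31%, and 2 rose, against 6.98%. In mural cells 9 of 42 rose, against 12%, and 3 fell, against 15.3%. In blood endothelium 8 of 42 rose, against 14%, and 10 fell, against 18.3%. In gland basal cells 16 of 45 rose, against 22.8%, and 9 fell, against 21%. In sorted ACI basal cells 14 of 43 rose, against 15.9%, and 7 fell, against 17.7%, and in SD basal cells 7 of 44 rose, against 15.3%, and 6 fell, against 14.2%. In sorted luminal progenitors 8 of 41 rose, against 14.8%, and 14 fell, against 15%, in ACI rats, and 6 of 43 rose, against 14.5%, and 7 fell, against 14%, in SD rats. In ACI mature luminal cells 5 of 41 rose, against 14.3%, and 12 fell, against 11.6%, and in SD mature luminal cells 5 of 42 rose, against 16.2%, and 11 fell, against 15.4%. In bulk samples 3 of 42 rose and 4 fell in adult virgin basal cells, against 8.73% called in either direction, and 3 of 44 rose in young ACI basal cells on day 0, against 3.34%.

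Rats differed from each other in these genes within their groups. In the 18 young ACI rats, the deviation of each rat from its group mean was compared between its sorts for ISG15, IRF7, OAS1A and PSMB8, in 12 relations. Basal and luminal cells of a rat deviated together for PSMB8, with Pearson's r of 0.890 and Spearman's rho of 0.804 (permutation test within groups, adjusted p = 0.00804 and 0.0353), and r was 0.784 without the 2 rats farthest from the median. For OAS1A r was 0.790 and rho 0.705 (adjusted permutation p = 0.00804 and 0.0353), and r was 0.813 without those 2. ISG15 had r of 0.682 and rho of 0.647 and did not pass (adjusted permutation p = 0.0889 and 0.0929), and IRF7 had r of 0.0011. Between luminal and CD45 cells PSMB8 had r of -0.635 and rho of -0.705 (adjusted permutation p = 0.0524 and 0.0353), and r was -0.547 without 2 rats. Each group held 3 rats, so relations within a group were not given.

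**Figure D5:**
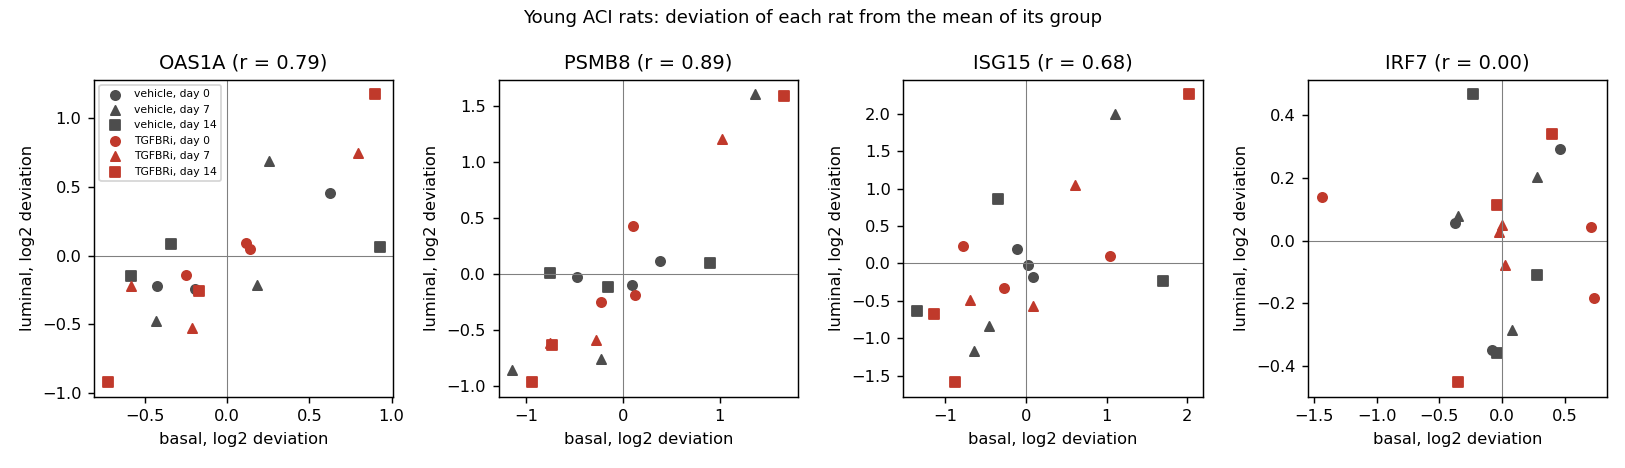
Deviation of each young ACI rat from its group mean in log2(normalized count + 1), basal on the x axis and luminal on the y axis, for OAS1A, PSMB8, ISG15 and IRF7. Colour gives the treatment and shape the day, with 3 rats per group. OAS1A and PSMB8 lie along a rising line and IRF7 does not.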

How the data were processed

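RNA of sorted mammary cells was amplified with a SMARTer v4 kit, and the authors aligned reads to rn6 with STAR 2.5.1b, counted them per gene without strand with HTSeq and divided them by DESeq2 1.30.1 size factors, per the methods and processing notes. These normalized counts, a signal on the scale of reads, were deposited per sample. Whole reads were recovered from them in all 202 samples (100% of values within 0.001 reads of a whole number), and edgeR and DESeq2 on those reads were alternatives. Reads assigned to no gene (12.5% to 26.7%) or to more than 1 (0.506% to 1.45%), listed in 85 samples, were left out. Single-cell UMI counts were deposited after Cell Ranger 4.0.0 (sorted cells, 3′ chemistry) or 7.0.0 (whole gland, 5′ chemistry). The authors kept cells with at least 100 genes and at most 15% mitochondrial reads, and sorted cells also had to lack PTPRC reads and hold at least 2 keratin reads. The deposited tables met these limits, with 0 cells above 15% on 13 mitochondrial genes. The medians per library were 2820 to 15940 UMIs per cell, and limits set on counts of 0 cover counting error only.

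Bulk values were tested as log2(value + 1) with limma 3.58.1 (trend and robust variances, genes summing to at least 10, Benjamini-Hochberg adjusted p of 0.05), with all groups of a sort and experiment in 1 fit. Cells were clustered with scanpy 1.11.5 (2000 variable genes without the members, 30 components, 20 neighbours, Leiden resolution 0.8) and classed by fixed markers. UMIs were summed per rat and class (at least 10 cells) and tested with edgeR 4.0.16 (quasi-likelihood, TMM, at least 10 UMIs, adjusted p of 0.1), and SE are those of DESeq2 1.42.0. Doublets were kept, with the highest 6% of Scrublet scores left out as an alternative. The limma and edgeR tests of bulk values and the edgeR test of single cells were tried on simulated data, for some sorts and classes. The other steps were not. Samples of a group were separate rats, except for 4 parts of 1 rat in the E2 experiment. Basal and luminal samples came from the same rats, so these pair (correlation of deviations 0.0245 to 0.198), and the rat as a block is given beside that result. The genes and lists were chosen with earlier results of these data known. Members past a threshold were named, up to 5 per direction, with 14 others that could always be named, and otherwise the 2 of lowest p.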

Additional observations from a re-analysis of the deposited data

Results flagged for a closer look

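Of 156 groups of 4 to 10 samples tested on the log2 scale for a sample far from the rest, over ISG15, IRF7, OAS1A and PSMB8, 7 had 1, where chance flags about 1 in 20. IRF7 was at 1958 normalized counts in luminal sample 6 of tumor-free TGFBRi rats with E2, against 479.9 to 526.2 in the other samples. It was at 1622 in vehicle rat 1 of adult virgin basal cells, against 517.3 to 627.7. ISG15 was at 480.1 in luminal vehicle rat 2 of the adult parous group, against 954 to 1083. In the single cells IRF7 was at 44.49 CPM in gland macrophages of TGFBRi rat 6, against 57.75 to 62.37. ISG15 was at 90.89 in sorted SD luminal progenitors of TGFBRi rat 11, against 22.43 to 32.52. OAS1A was at 1.596 in gland B cells of TGFBRi rat 6, against 4.121 to 6.654, and at 0 in gland NK cells of TGFBRi rat 14, against 4.673 to 11.98.

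Other results were picked out because the TGFBRi effect differed between groups by a test of the difference. The pairs of whole-gland classes were themselves picked after the class values were seen. That choice favoured differences in the direction found, so these tests are a description of the pairs picked. Within whole glands (limma over 9 rats, adjusted p of 0.1 or less), the effect in mature luminal minus that in mural cells was -1.558 for IRF7, -3.043 for IFIT3, -1.988 for ISG15, -2.848 for CXCL10, -2.146 for CXCL9, -1.076 for IRF1, -3.042 for IRF8 and -1.325 for TAP1 on the log2 scale. The effect in mature luminal cells minus that in luminal progenitors was -1.073 for IRF7, -0.5494 for STAT2, -1.538 for CXCL9, -1.114 for IRF1 and -1.852 for IRF8. The effect in macrophages minus that in blood endothelium was -1.036 for IRF7, -2.653 for IFIT3, -1.756 for ISG15, -2.766 for CXCL10 and -0.786 for IRF1. In adult ACI basal cells the parous minus the virgin effect of GBP5 was 6.649, a size that depends on the pseudocount because the treated virgin samples were all at 0.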

How the results depend on the processing

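Calls were counted over the comparisons of an experiment, leaving out tests of a difference between 2 effects. Young ACI rats had 5, and 12 with DESeq2, 1 with edgeR, 3 with genes of a mean of at least 10, 15 with only the groups compared and 8 with a pseudocount of 8. On day 0, DESeq2 called 8.77%, 4.41% and 8.39% of the genes it gave an adjusted p in basal, luminal and CD45 cells. With only the groups compared 10.7%, 11.6% and 0.215% of all genes were called there, and by edgeR 0.486%, 0.0198% and 1.3%. For the remaining settings no share of all genes is given, so those counts are no result about the members. Adult ACI rats had 2, and 1 with only the groups compared, where 1.05% of all genes were called in virgin basal cells. NMU glands had 0, and 12 with DESeq2, 2 with edgeR and 1 with limma on TMM-scaled reads. DESeq2 called 11.7% and 10.8% of genes in luminal cells of tumor-free and tumor-bearing TGFBRi rats, and edgeR 3.62% and 1.85%. In basal cells of tumor-bearing TGFBRi rats DESeq2 called 9.49%. E2 against none had 0 and 5 with DESeq2, and parity 0 and 2 with DESeq2. For E2, DESeq2 called 2.02% of genes in CD45 and 5.24% in luminal cells. For parity it called 0.107% in basal and 1.22% in luminal cells. The sorted single-cell classes had 86, and 57 when all cells of a sorted library were summed. No share of all genes is given for the summed libraries, so this change is no result about the members. With 1 sample left out at a time, calls ranged from 2 to 7 in young ACI rats, 0 to 0 in young SD rats, 2 to 5 in adult rats, 0 to 0 for parity, 0 to 13 in NMU glands, 0 to 0 in NMU tumors, 0 to 12 for TGFBRi in the E2 experiment, 0 to 3 for E2 against none, 42 to 47 for basal against luminal cells, 71 to 90 in sorted classes and 130 to 145 in gland classes. These ranges are given without shares of all genes and are no result about the members. In each case the cause of a change was not tested. Among named genes with a call, 0 turned direction, and 91 of 199 lost their call in at least 1 fit without 1 sample. For young SD rats, NMU tumors and basal against luminal cells, a fit of only the groups compared is the fit given.

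With a replicate block on the number shared in the labels, the gland classes had 81 calls against 138, namely 20 in basal, 14 in mature luminal, 12 in blood endothelium, 11 in mural, 8 in Schwann, 6 in fibroblast, 5 in luminal progenitor, 2 in macrophage, 2 in lymphatic endothelium, 1 in B and 0 in T and NK cells. That fit took only rats whose number occurs in both groups, so TGFBRi rats 6, 11 and 14 were left out of it. The block and the loss of rats cannot be told apart, and calls over all genes fell in each class too. The shared numbers only name rats, since the median correlation of same-numbered rats over 12 classes was 0.024, -0.103 and 0.071 for numbers 1, 2 and 4. The replicate block on the adult codes (correlations -0.566 to 0.338) left 2 calls, and for the parous minus virgin effect of GBP5 the adjusted p with the block was 0.0614. The rat as a replicate block gave 50 calls against 45 for basal against luminal cells, and the calls over all genes are given with that result. Low levels limited IFIT1, OAS3, OAS2, TAP2 and CXCL11, which could be tested in 1, 3, 5, 7 and 8 of 12 gland classes.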

Other observations

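In whole glands, cluster 26 (859 cells) met the marker rule of no cell class and stayed unnamed. It was led by CCL17, CCL22, FSCN1 and ISG15, and dendritic cell markers came nearest. ISG15 was at 4380 CPM in it, and CXCL9 at 14.6, with the cells of all 9 libraries pooled.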
